A study of Mus musculus with 9 samples.

Results

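Hpgd and 9 further genes of prostaglandin and leukotriene metabolism were followed across 3 kinds of mouse leukemia. The members were all probe sets of the deposited table to which the platform annotation gives 1 gene symbol on the list Hpgd, Ptgs1, Ptgs2, Ptges, Hpgds, Alox5, Alox5ap, Ltc4s, Lta4h and Tbxas1. That rule found 15 of 45101 probe sets, for 9 of 18194 genes. Ptgs1 had no such probe set and was not analysed here. The list was drawn up around Hpgd, which was known to have a very low level in one group, so the members were chosen by its difference between Af10 deleted and floxed leukemias. That difference is given for all members as a description, with no test.

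The leukemias arose in mice of mixed C57/BL6 X 129 background, and freshly harvested bone marrow cells were measured. Both MLL-AF9 groups began as primary leukemias with the MLL-AF9 fusion and homozygous floxed AF10 (gene Mllt10). They were transduced with MSCV-IRES-tdTomato (MIT) alone (Af10 floxed, 3 arrays) or with the same vector carrying Cre recombinase (Af10 deleted, 3 arrays), passed through secondary recipient mice and sorted for tdTomato. The 3 arrays of the last group came from primary leukemias transduced with Hoxa9 and Meis1, for which the labels record no sort or other treatment. Cre itself and the deletion it makes cannot be told apart in these groups, and against Hoxa9-Meis1 leukemias the oncogene, passage, vector and sort cannot be told apart. The labels do not say that each array is a separate leukemia, so errors and p-values cover the spread between these samples. No mouse age was given.

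Eicosanoids are lipid signals made from arachidonic acid, a fatty acid that phospholipases free from membranes. Cyclooxygenases, encoded by Ptgs1 and Ptgs2, turn it into a common precursor from which separate synthases make the prostaglandins and thromboxane. 5-lipoxygenase (Alox5), with its helper protein Alox5ap, starts the leukotriene branch, which is typical of myeloid cells. The enzyme encoded by Hpgd oxidises prostaglandins and so ends their action.

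Levels are log2(intensity + 1) and each mean of a group is followed by ± its SD (n = 3 arrays). As a gauge of background, 9 probe sets for Kdm5d, Eif2s3y and Uty, all Y-linked, ranged from 2.97 to 4.71. Myeloid genes of the labelled cell type were high in all groups: the 8 measured (among them Mpo, Elane and Itgam) had a summed level of 15.58 to 16.19 on every array. The Gapdh control signal toward the 3' end exceeded that toward the 5' end, a gauge of RNA integrity, by 1.03 on floxed replicate 5 and by 0.44 to 0.81 on the other 8 arrays. Genes on chromosome 1 were higher on deleted replicate 6 than on the other deleted arrays, by a median of 0.15. Against the other floxed arrays, the median for chromosome 15 was 0.14 on floxed replicate 4 and -0.11 on floxed replicate 5. For chromosome 5 it was -0.12 on floxed replicate 5. Median intensities per array were 146 to 156.

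The bases before the start site are shown for Hpgd, Alox5 and Tbxas1, the members with the largest differences between groups by their brightest probe set. They are the RefSeq promoters of build GRCm38.p6, from 250 bases before the start to the base next to it, 5′ to 3′ on the strand of the gene. Hpgd is on the plus strand at chr8:56294302-56294551, Alox5 on the minus strand at chr6:116461179-116461428 and Tbxas1 on the plus strand at chr6:38918736-38918985. The Tbxas1 start used by the table lies inside the gene's full span, 38864159 to 39084590. Capitals mark letters of the motifs searched on both strands.
Hpgd: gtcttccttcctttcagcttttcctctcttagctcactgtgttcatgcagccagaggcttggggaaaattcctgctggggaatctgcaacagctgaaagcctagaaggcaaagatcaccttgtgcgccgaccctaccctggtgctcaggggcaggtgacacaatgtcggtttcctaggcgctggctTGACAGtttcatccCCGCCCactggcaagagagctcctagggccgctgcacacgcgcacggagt
Alox5: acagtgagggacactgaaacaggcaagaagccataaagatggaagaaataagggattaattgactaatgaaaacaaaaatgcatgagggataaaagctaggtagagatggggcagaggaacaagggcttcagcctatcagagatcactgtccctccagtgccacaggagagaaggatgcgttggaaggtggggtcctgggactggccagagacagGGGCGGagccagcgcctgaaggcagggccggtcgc
Tbxas1: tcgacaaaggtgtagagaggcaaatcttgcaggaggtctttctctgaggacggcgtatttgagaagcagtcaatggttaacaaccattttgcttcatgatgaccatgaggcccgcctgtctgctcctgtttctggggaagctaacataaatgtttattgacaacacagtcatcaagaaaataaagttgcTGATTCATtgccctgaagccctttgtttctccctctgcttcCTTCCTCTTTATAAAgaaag

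The motifs were the Meis core TGACAG, the Pbx-Hox composite TGATNNAT, the C/EBP motif TTGCNNAA, the PU.1 motif GAGGAAG, the GC box GGGCGG and the TATA box TATAAA. The Hpgd promoter held TGACAG at position -64, counted back from the start, and a GC box on the opposite strand at -50. Of 32851 promoters in the table, 15.9% hold TGACAG and 32.7% a GC box. Alox5 held a GC box at -35. Tbxas1 held TGATTCAT at -61, a PU.1 motif on the opposite strand at -20, and a TATA box at -11 that overlaps another on the opposite strand at -13. The Pbx-Hox composite stands in 7.68% of all promoters, the PU.1 motif in 10.6% and the TATA box in 12.4%. The C/EBP motif, in 9.56% of promoters, was found in Ptgs2 and Hpgds among the 9 listed genes with a promoter. Those 9 include Ptgs1, which was not measured, and leave out Alox5ap, for which no promoter was available. These matches describe letters and not binding.

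Hpgd was abundant in floxed and Hoxa9-Meis1 leukemias and close to background after Af10 deletion. Its brighter probe set gave 12.93, 13.09 and 13.17 in floxed leukemias (replicates 4, 5 and 6), and 6.62, 4.66 and 5.23 in deleted leukemias of the same numbers. In intensity units this is 7813, 8691 and 9212 against 97.5, 24.3 and 36.5. The 2 groups lay far apart, with deleted replicate 5 inside the background range, so the size of the difference is partly limited by background. Hoxa9-Meis1 leukemias were at 11.87, 10.99 and 13.26, spread more widely than either MLL-AF9 group and overlapping the floxed one. Each array measured many cells together, sorted for tdTomato in both MLL-AF9 groups, so fewer cells that make a transcript and less of it per cell cannot be told apart.

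The Hpgd difference between deleted and floxed leukemias was -7.56 (SE 0.59, 189-fold), and leaving out any 1 array kept it between -8.12 and -7.14. The other Hpgd probe set, was at 6.31, 5.52 and 6.20 in deleted and 12.48, 12.44 and 12.75 in floxed leukemias (difference -6.54, SE 0.56). It was at 11.24, 10.19 and 12.88 in Hoxa9-Meis1 leukemias, so the group means had the same order with both probe sets. The low deleted values chose the gene, so its level against Hoxa9-Meis1 leukemias is also given with no test. Deleted leukemias were 92.7-fold lower by the brighter probe set (difference -6.53, SE 0.59) and 43-fold lower by the other (difference -5.43, SE 0.56). Floxed leukemias had 1.02 more than Hoxa9-Meis1 leukemias (SE 0.59) and did not pass (limma adjusted p = 0.345). The floxed arrays of this comparison also took part in the contrast that chose the gene.

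**Figure D1:**
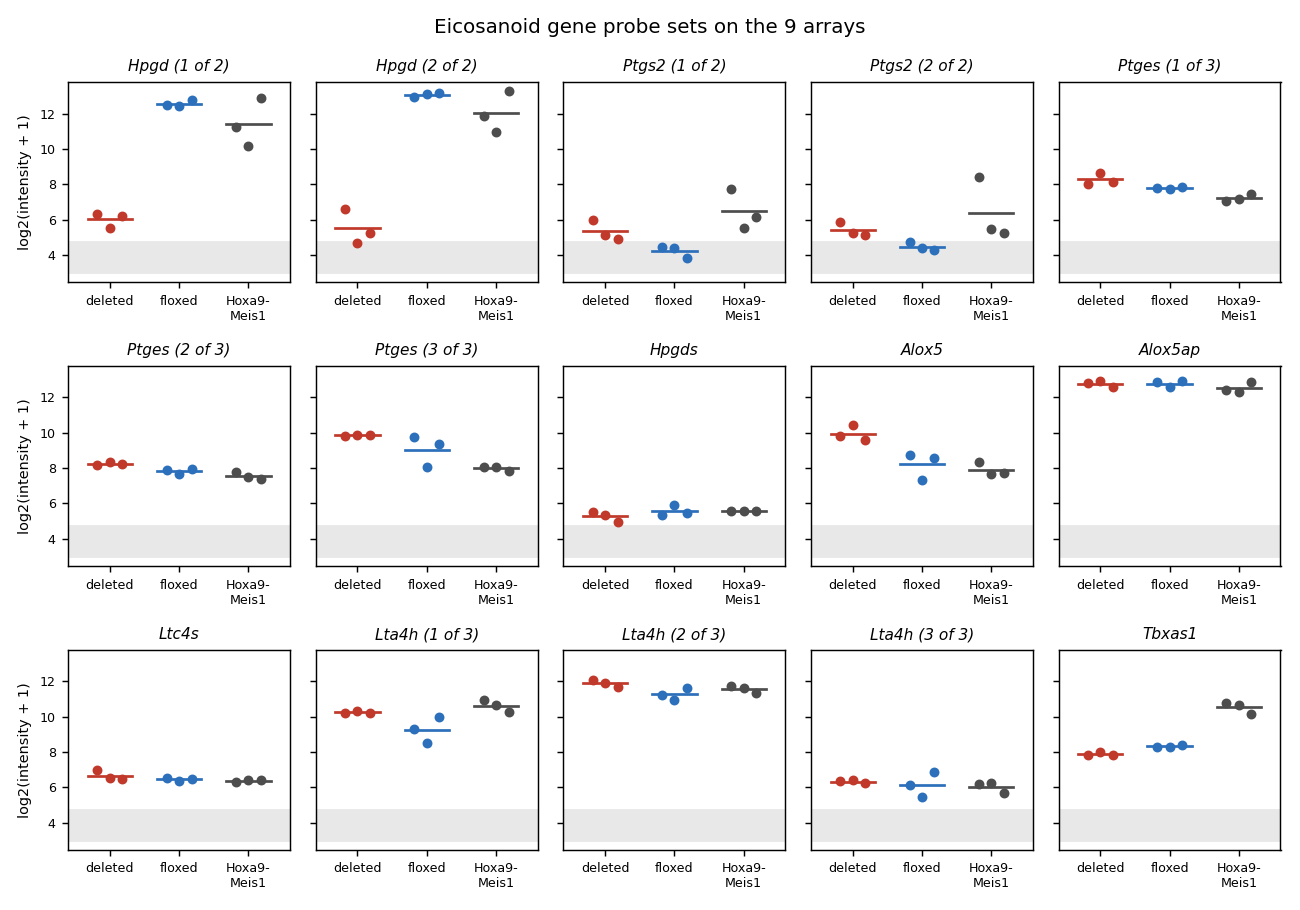
Levels of the 15 member probe sets as log2(intensity + 1). Each panel is 1 probe set, points are arrays in replicate order, lines are group means and the grey band is the background range, 2.97 to 4.71. Hpgd in deleted leukemias sits at 4.66 to 6.62, far below both other groups, while Tbxas1 is above 10 only in Hoxa9-Meis1 leukemias.

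The genes measured next to Hpgd did not differ as it did between deleted and floxed leukemias. Of the 5 annotated genes on either side of it on chromosome 8 (56294552 to 56321046 for Hpgd itself), Glra3, Cep44 and Fbxo8 had a probe set. Between deleted and floxed leukemias Glra3, a glycine receptor subunit gene, differed by -0.03 (limma adjusted p = 0.899), Cep44, for a centrosomal protein, by -0.49 (limma adjusted p = 0.326) and Fbxo8, for an F-box protein, by -0.25 (limma adjusted p = 0.492). Among the 5 nearest measured genes on each side, a choice made after seeing the data, the differences ran from -0.49 to 1.53. Of these, Asb5, Spata4 and Gpm6a had means within the background range in all 3 groups and could not have shown a lower level. Scrg1 alone was called, rising from 6.25 ± 0.32 to 7.78 ± 0.79 (limma adjusted p = 0.0344), opposite in direction to Hpgd. That call was lost when deleted replicate 4 or 5 or any floxed array was left out (limma adjusted p up to 0.128), with only the 2 groups in the fit (0.081), with a pseudocount of 32 (0.0528) and with the replicate block, in which the replicate number is a term (0.101). The 932 measured genes of chromosome 8 had a median difference of 0.08.

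**Figure D2:**
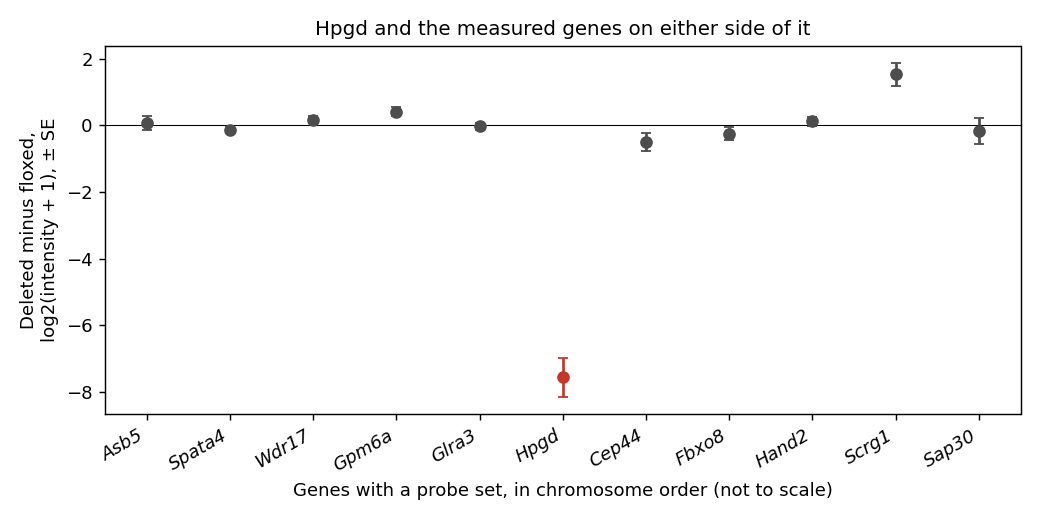
Difference between deleted and floxed leukemias for Hpgd and the 5 nearest measured genes on each side, in chromosome order, as log2(intensity + 1) with standard errors. Hpgd is at -7.56, and the 10 other genes lie between -0.49 and 1.53.

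The genes whose levels over the 9 arrays were most like those of Hpgd were Gm17546 (Pearson's r = 0.983), the integrin gene Itgb7 (0.982), the nuclear pore gene Nup210 (0.978), the immunoproteasome gene Psmb9 (0.971) and the kinase gene Cdk8 (0.970). Itgb7 was at 8.99 ± 0.29 in deleted, 11.43 ± 0.36 in floxed and 11.07 ± 0.59 in Hoxa9-Meis1 leukemias, the same order as Hpgd. The most opposite were the amino acid transporter gene Slc7a2 (-0.982), the exporter gene Abcg2 (-0.980) and the peptide receptor gene Vipr2 (-0.976). These r values describe 9 arrays in 3 groups, and for all 8 genes the deleted arrays did not overlap either other group. None of the other 8 measured members had an r with Hpgd as extreme: Alox5 came lowest at -0.858 and Hpgds highest at 0.611.

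Of the cyclooxygenases, the inducible Ptgs2 was dim in MLL-AF9 leukemias. In floxed leukemias its 2 probe sets lay between 3.84 and 4.75, in or next to the background range, and in deleted leukemias between 4.91 and 5.99. The brighter probe set was at 8.40, 5.45 and 5.23 in Hoxa9-Meis1 replicates 1, 2 and 3, and the other at 7.73, 5.52 and 6.14. Replicate 1 stood well above its group with both. Summed mast cell and basophil markers were at 14.23, 13.98 and 12.34 on Hoxa9-Meis1 replicates 1, 2 and 3, and at 12.10 to 12.77 on the MLL-AF9 arrays. Replicate 2 was thus near replicate 1 in that sum but not in Ptgs2. The part of these markers was not tested. The brighter Ptgs2 probe set was lower in floxed than in Hoxa9-Meis1 leukemias by 1.90 on average (SE 0.71) but did not pass (limma adjusted p = 0.136). The other passed in the fit over all probe sets (difference -2.23, limma adjusted p = 0.0299), where 9.01% of probe sets were called. That call was lost without Hoxa9-Meis1 replicate 1 or any 1 floxed array (limma adjusted p up to 0.0814), with only the 2 groups in the fit (0.058) and with a pseudocount of 32 (0.0822). Between deleted and Hoxa9-Meis1 leukemias the brighter probe set differed by -0.94 (limma adjusted p = 0.444), and without Hoxa9-Meis1 replicate 1 the sign turned (0.08).

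Among the synthases that follow cyclooxygenase, Ptges, for the inducible prostaglandin E synthase, was highest in deleted leukemias with all 3 of its probe sets. The brightest gave 9.81, 9.89 and 9.88 in deleted leukemias, 9.74, 8.04 and 9.36 in floxed ones and 8.08, 8.04 and 7.84 in Hoxa9-Meis1 leukemias. The deleted arrays agree closely, while floxed replicate 5 falls to the Hoxa9-Meis1 level. Deleted exceeded Hoxa9-Meis1 leukemias 3.65-fold (difference 1.87, SE 0.36, limma adjusted p = 0.00885). The other probe sets were higher by 1.06 (limma adjusted p = 0.004) and 0.68 (limma adjusted p = 0.0113), where 15% of all probe sets were called. Floxed and Hoxa9-Meis1 leukemias differed by 1.05 and did not pass (limma adjusted p = 0.107). Without floxed replicate 5, the array with the widest Gapdh gap, the difference was 1.56 and passed (limma adjusted p = 0.00152), as did the mean of the 3 probe sets (0.0467) and a fit with array weights (0.0112). Between deleted and floxed leukemias Ptges differed by 0.81 (SE 0.36), and by 0.31 without floxed replicate 5.

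Tbxas1, for thromboxane synthase, set the Hoxa9-Meis1 leukemias apart from both others. It was at 10.78, 10.65 and 10.13 there, at 8.31, 8.30 and 8.41 in floxed and at 7.84, 7.99 and 7.84 in deleted leukemias. No array of one group reached the range of another. It was 4.52-fold lower in floxed than in Hoxa9-Meis1 leukemias (difference -2.18, SE 0.16, limma adjusted p = 0.000149) and 6.17-fold lower in deleted ones (difference -2.63, SE 0.16, limma adjusted p = 2.52e-05). Deleted and floxed leukemias differed by -0.45 (SE 0.16). Platelets and macrophages are known sources of this enzyme. Of 7 measured megakaryocyte and platelet markers, 1 was lower and 0 higher in each MLL-AF9 group against Hoxa9-Meis1 leukemias. Their summed level was 11.08 to 11.47 in Hoxa9-Meis1, 10.71 to 10.93 in floxed and 10.12 to 10.28 in deleted leukemias, in the same order as Tbxas1. The called marker was Itgb3, with means of 10.63, 9.81 and 7.77 in these groups, and Itga2b ran the same way (8.37, 7.66 and 7.58). Gp1bb (7.28, 7.85 and 8.07), Gp9 (8.23, 8.42 and 8.62) and Pf4 (4.64, 4.65 and 5.06) ran the opposite way, none of them called. Gp6 was lowest in floxed leukemias. Ppbp, also on the list, lay within the background range on every array. Of 8 monocyte and macrophage markers, 0 were called in floxed and 1 was lower in deleted leukemias against Hoxa9-Meis1, with summed levels of 13.73 to 14.46, 13.54 to 14.03 and 12.33 to 13.47 in Hoxa9-Meis1, floxed and deleted leukemias. The part of either list in the Tbxas1 difference was not tested.

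Hpgds, for the prostaglandin D synthase of blood cells, was dim everywhere, from 4.93 to 5.89 over the 9 arrays. Its group means were 5.26 ± 0.30 in deleted, 5.56 ± 0.29 in floxed and 5.56 ± 0.01 in Hoxa9-Meis1 leukemias. It differed from Hoxa9-Meis1 leukemias by 0.001 in floxed (limma adjusted p = 0.998) and -0.30 in deleted ones (limma adjusted p = 0.331). All these levels are close to the background range.

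In the leukotriene branch, Alox5 was highest after Af10 deletion. It was at 9.85, 10.42 and 9.56 in deleted leukemias, at 8.72, 7.32 and 8.57 in floxed and at 8.34, 7.65 and 7.71 in Hoxa9-Meis1 leukemias. Every deleted array was above every other array, and the other 2 groups overlapped. Deleted exceeded Hoxa9-Meis1 leukemias 4.12-fold (difference 2.04, SE 0.38, limma adjusted p = 0.0077), and floxed leukemias differed from them by 0.31 (limma adjusted p = 0.684). The deleted minus floxed difference was 1.74 (SE 0.38), and 1.30 without floxed replicate 5, the lowest array. Alox5 and Hpgd were the members with the largest differences in that contrast, in opposite directions.

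Alox5ap, whose product presents arachidonic acid to the lipoxygenase, was bright and nearly level. Its means were 12.78 ± 0.16 in deleted, 12.79 ± 0.19 in floxed and 12.52 ± 0.30 in Hoxa9-Meis1 leukemias, and all groups overlapped. Against Hoxa9-Meis1 leukemias it differed by 0.26 in deleted (limma adjusted p = 0.383) and 0.27 in floxed ones (limma adjusted p = 0.406). Alox5 and its helper thus had different patterns over the same arrays.

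Lta4h, for the hydrolase that makes leukotriene B, was lowest in floxed leukemias with its 2 brighter probe sets. The brightest gave 12.09, 11.90 and 11.66 in deleted, 11.20, 10.93 and 11.65 in floxed and 11.74, 11.62 and 11.33 in Hoxa9-Meis1 leukemias. The deleted arrays were just above the floxed ones, and the Hoxa9-Meis1 arrays overlapped both. Another was at 10.21, 10.34 and 10.23 in deleted, 9.30, 8.48 and 9.99 in floxed and 10.95, 10.66 and 10.26 in Hoxa9-Meis1 leukemias. Floxed leukemias were lower than Hoxa9-Meis1 by that probe set (difference -1.37, SE 0.33, limma adjusted p = 0.0365 over all probe sets) but not by the brightest (-0.30, limma adjusted p = 0.41). The call was lost without floxed replicate 4 or 5 or Hoxa9-Meis1 replicate 1 or 2 (limma adjusted p up to 0.135) and with only the 2 groups in the fit (0.0855). The dimmest probe set, at 5.45 to 6.87, did not pass in either comparison with Hoxa9-Meis1. From floxed to deleted leukemias the 3 probe sets differed 1.54-fold, 2-fold and 1.12-fold, each higher in deleted ones.

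Ltc4s, for the synthase of the cysteinyl leukotrienes, was low, between 6.29 and 6.95. Deleted leukemias were at 6.65 ± 0.26, floxed at 6.45 ± 0.10 and Hoxa9-Meis1 leukemias at 6.37 ± 0.07. Neither MLL-AF9 group passed against Hoxa9-Meis1 (limma adjusted p = 0.248 for deleted and 0.802 for floxed).

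**Figure D3:**
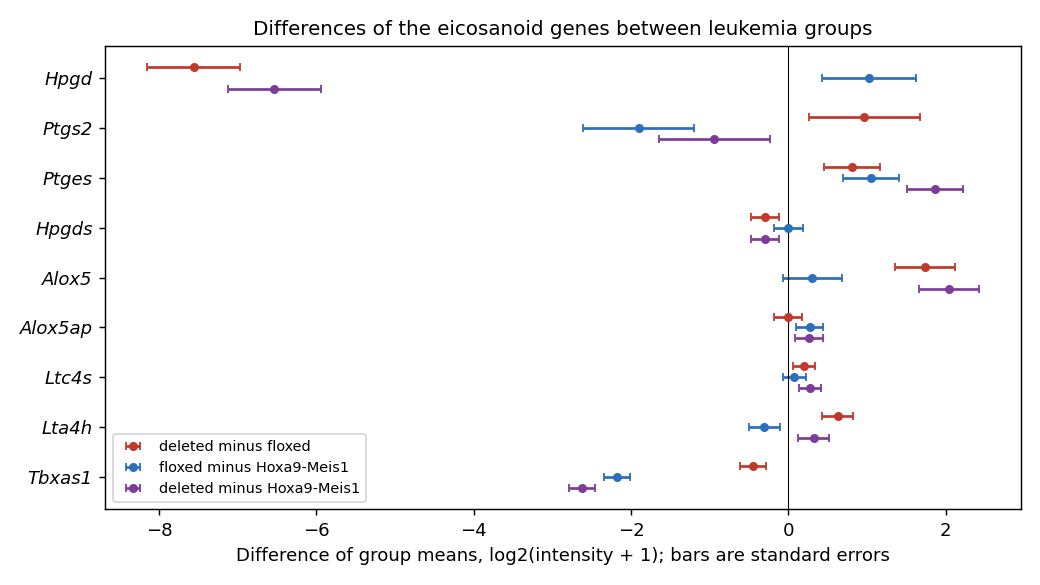
Differences of group means for the 9 member genes, each by its brightest probe set, on the log2(intensity + 1) scale with standard errors. Hpgd stands at -7.56 and -6.53 in the contrasts of deleted leukemias, and Tbxas1 at -2.18 and -2.63 in the contrasts with Hoxa9-Meis1 leukemias.

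Of the 9 member genes, Ptges and Alox5 were called higher and Tbxas1 lower between deleted and Hoxa9-Meis1 leukemias. Hpgd is given no test there and is not counted. Of all genes 15.5% were called in that comparison, 9.27% higher and 6.23% lower. As a description that includes Hpgd, the median difference of the members was 0.26, beside 0.05 over all genes. Likewise 9 of 15 probe sets did not overlap between the groups (34.2% of all probe sets). Floxed leukemias differed from Hoxa9-Meis1 in 1 gene, Tbxas1, which was lower. In that comparison 8.89% of all genes were called, 5.58% higher and 3.31% lower. The median was 0.08 beside -0.01, and 5 of 15 probe sets did not overlap (28.1% of all probe sets). In the contrast that chose the members the median was 0.20 beside 0.06, and 11 of 15 probe sets did not overlap between the groups (24.8% of all probe sets), from which nothing is read. The 3 comparisons share groups and are not independent.

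A further 62 genes of the same pathways were listed by role, with earlier results of these data known, and 55 were measured. In deleted against floxed leukemias 7 rose and 1 fell (14.5%, beside 6.85% of all genes, of which 3.22% higher and 3.63% lower), and the median difference was 0.10. Against Hoxa9-Meis1 leukemias 2 were higher and 2 lower in floxed ones (7.27%). Of all genes 8.89% were called there, 5.58% higher and 3.31% lower. In deleted against Hoxa9-Meis1 leukemias 6 were higher and 4 lower (18.2%). Of all genes 15.5% were called there, 9.27% higher and 6.23% lower. By role, 2 of 17 genes that release arachidonic acid, 0 of 4 further synthases and reductases, 1 of 10 further lipoxygenase and leukotriene genes, 3 of 10 genes of transport and breakdown and 2 of 14 receptors were called between deleted and floxed leukemias. Over all genes 6.85% were called in that contrast, and nothing is read from counts by role this small. Fewer pathway genes were called in it under some settings. There were 4 with only the 2 groups in the fit, 3 with the replicate block and 4 to 6 with arrays left out. The 4 calls of floxed against Hoxa9-Meis1 leukemias became 2 without floxed replicate 4 or Hoxa9-Meis1 replicate 2. The 10 calls of deleted against Hoxa9-Meis1 leukemias became 4, 5 and 6 without deleted replicate 4, 5 or 6, and 1 and 2 without Hoxa9-Meis1 replicate 1 or 2.

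The receptors called between deleted and floxed leukemias were Ptgir and Ptger4, both lowest in floxed ones. Ptgir, the prostacyclin receptor gene, was at 9.73, 9.66 and 9.65 in deleted, 8.10, 7.31 and 7.47 in floxed and 10.64, 10.26 and 10.33 in Hoxa9-Meis1 leukemias. No array of one group reached another group. It rose 4.14-fold with deletion (difference 2.05, SE 0.20, limma adjusted p = 0.000589) and was 6.88-fold lower in floxed than in Hoxa9-Meis1 leukemias (limma adjusted p = 0.000114). Its smaller difference between deleted and Hoxa9-Meis1 leukemias (-0.73, limma adjusted p = 0.0379) was lost when any 1 of their 6 arrays was left out (up to 0.135).

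Ptger4, a receptor gene for prostaglandin E, was at 8.97, 9.68 and 9.23 in deleted, 5.90, 7.34 and 8.09 in floxed and 8.72, 8.82 and 9.57 in Hoxa9-Meis1 leukemias. The floxed arrays were below all others and spread widely. It rose 4.54-fold with deletion (limma adjusted p = 0.0314) and was 3.80-fold lower in floxed than in Hoxa9-Meis1 leukemias (limma adjusted p = 0.0422). Its other probe set passed both times in the fit over all probe sets (limma adjusted p = 0.0081 and 0.0214). Leaving out arrays was not run for that other probe set. For the brighter probe set leaving out any deleted array or floxed replicate 5 ended the first call (limma adjusted p up to 0.095), and leaving out floxed replicate 4 or 5 or any Hoxa9-Meis1 array the second (up to 0.0976). Both were also lost with only the 2 groups in the fit (0.0698 and 0.0881) and with array weights (0.0514 and 0.0582), and the first with the replicate block (0.0529). Ptger2, another such receptor gene, was at 6.03 ± 1.09 in deleted and 8.31 ± 0.14 in Hoxa9-Meis1 leukemias (difference -2.29, limma adjusted p = 0.0213, and up to 0.0695 without deleted replicate 4 or Hoxa9-Meis1 replicate 1 or 2).

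Ltb4r1 and Fpr2 were higher in deleted than in Hoxa9-Meis1 leukemias. Ltb4r1, a receptor gene for leukotriene B, was at 11.41 ± 0.12 against 10.22 ± 0.25 (limma adjusted p = 0.0366), a call that leaving out any 1 of the 6 arrays ended (up to 0.12), as did repeated quantile normalization (0.0611). Fpr2, a formyl peptide receptor gene, was at 12.54, 13.18 and 11.21 against 7.84, 6.54 and 11.16 (13.9-fold, limma adjusted p = 0.0343). Hoxa9-Meis1 replicate 3 lay level with the lowest deleted array. The call was lost without deleted replicate 4 or 5 or Hoxa9-Meis1 replicate 1 or 2 (limma adjusted p up to 0.118) and with only the 2 groups in the fit (0.0724).

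Among genes of arachidonic acid release and its lipid precursors, Mgll, for monoacylglycerol lipase, was at 9.59, 9.55 and 9.77 in deleted, 8.28, 7.47 and 8.51 in floxed and 7.21, 6.69 and 6.91 in Hoxa9-Meis1 leukemias. The 3 groups did not overlap. It rose 2.92-fold with deletion (limma adjusted p = 0.00829) and was 6.48-fold higher in deleted than in Hoxa9-Meis1 leukemias (limma adjusted p = 0.000227). The floxed difference from Hoxa9-Meis1 (1.15, limma adjusted p = 0.0241) was lost without floxed replicate 4 or 6 or Hoxa9-Meis1 replicate 2 or 3 (up to 0.0897), with the mean of its probe sets (0.0561) and with only the 2 groups in the fit (0.0616). Dagla, for a diacylglycerol lipase, rose from 6.80 ± 0.20 to 7.83 ± 0.52 with deletion (limma adjusted p = 0.0313) and was 2.02-fold above Hoxa9-Meis1 leukemias (limma adjusted p = 0.0193). The first call was lost without deleted replicate 5 or any floxed array (up to 0.115), with only the 2 groups in the fit (0.081) and with the replicate block (0.0819), and the second without Hoxa9-Meis1 replicate 1 or 2 (up to 0.0668).

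Ptgr1, for a reductase that acts on prostaglandins after the Hpgd enzyme, was the 1 further pathway gene called lower with deletion. It was at 11.62, 11.62 and 11.38 in deleted, 12.40, 12.61 and 12.62 in floxed and 11.47, 11.21 and 11.05 in Hoxa9-Meis1 leukemias. Floxed arrays were above all others. It fell 2.01-fold with deletion (difference -1.01, SE 0.14, limma adjusted p = 0.00361) and was 2.47-fold higher in floxed than in Hoxa9-Meis1 leukemias (limma adjusted p = 0.000952). Both Ptgr1 and Hpgd had their highest group mean in floxed leukemias, but the other 2 groups differed in order. Mean Hpgd was 12.04 in Hoxa9-Meis1 and 5.50 in deleted leukemias, and mean Ptgr1 was 11.24 and 11.54. Ptgds, for another prostaglandin D synthase, had a deleted minus floxed difference of -1.04 that missed the threshold (limma adjusted p = 0.196). Its other probe set differed by only -0.07 (limma adjusted p = 0.871 over all probe sets). The gene was named after its values were seen.

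The remaining calls were of at most 2.11-fold. With deletion Mgst2, a microsomal glutathione transferase gene, rose 2.11-fold (limma adjusted p = 0.0377), the exporter gene Abcc4 1.64-fold (0.0456) and the lipid peroxidase gene Gpx4 1.46-fold (0.0306), the last 2 named after their values were seen. Each was lost when any of 5 of the 6 arrays was left out: all but deleted replicate 6 for Mgst2, all but deleted replicate 5 for Abcc4 and all but deleted replicate 4 for Gpx4 (limma adjusted p up to 0.133, 0.146 and 0.0902). All 3 were also lost with the replicate block (0.0502, 0.0581 and 0.115). With only the 2 groups in the fit Abcc4 (0.104) and Gpx4 (0.0771) were lost. Abcc4 was also lost with a pseudocount of 32 (0.0517), repeated quantile normalization (0.0528) and array weights (0.0723). A dimmer Gpx4 probe set rose 1.68-fold and passed in the fit over all probe sets (limma adjusted p = 0.0143). Leaving out arrays was not run for it.

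In deleted against Hoxa9-Meis1 leukemias Ptges2, for a second prostaglandin E synthase, was 1.48-fold higher (limma adjusted p = 0.0261) and Gpx4 1.35-fold higher (0.0449). The carbonyl reductase gene Cbr1 was 1.81-fold lower (0.0461) and the exporter gene Abcc1 1.40-fold lower (0.0227). Leaving out 1 array ended the calls of Ptges2 (any deleted array or Hoxa9-Meis1 replicate 1; limma adjusted p up to 0.099), Gpx4 (any but deleted replicate 4; up to 0.114), Cbr1 (any but Hoxa9-Meis1 replicate 3; up to 0.153) and Abcc1 (deleted replicate 4 or 6 or Hoxa9-Meis1 replicate 1 or 2; up to 0.0825). With only the 2 groups in the fit Gpx4 (0.0727) and Cbr1 (0.0672) were lost, and with repeated quantile normalization the same pair (0.0724 and 0.0622). Cbr1 was also lost with a pseudocount of 32 (0.0588), and Abcc1 with the mean of its probe sets (0.114). The dimmer Gpx4 probe set was 1.74-fold higher in the fit over all probe sets (limma adjusted p = 0.00489), again with no arrays left out.

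**Figure D4:**
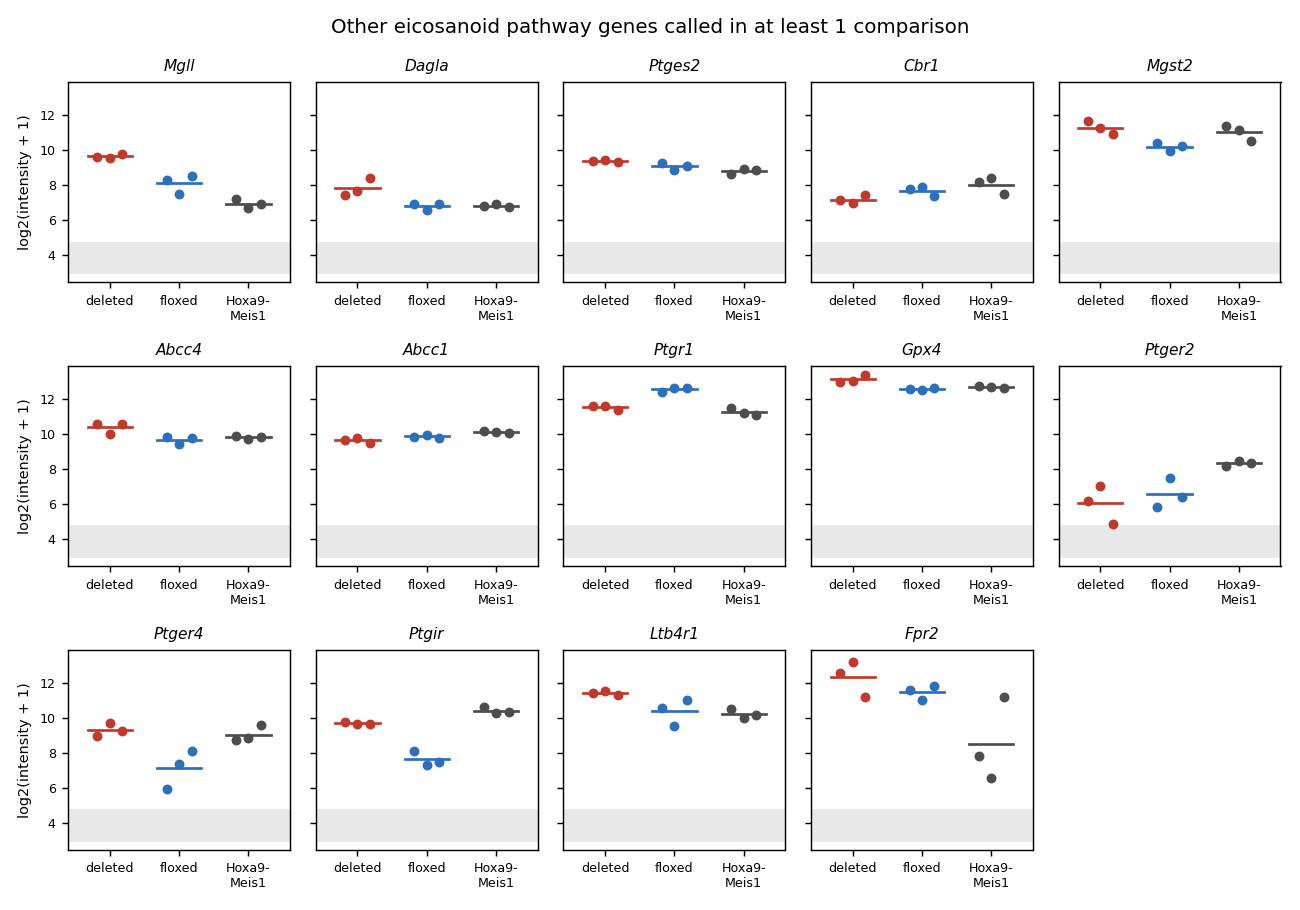
Levels of the 14 further pathway genes called in at least 1 comparison, as log2(intensity + 1), drawn as for the member probe sets, with points for arrays, lines for group means and the background range in grey. Ptgir and Ptger4 are lowest in floxed leukemias, and Mgll falls from deleted to floxed to Hoxa9-Meis1 leukemias without overlap.

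Mast cells, basophils and eosinophils are rich in prostaglandin D and leukotriene enzymes. Of 11 mast cell and basophil markers, 3 were lower in floxed and 4 in deleted than in Hoxa9-Meis1 leukemias, with 0 higher. Their summed level was 14.23, 13.98 and 12.34 in Hoxa9-Meis1 replicates 1, 2 and 3, against 12.10 to 12.28 in floxed and 12.52 to 12.77 in deleted leukemias. Within the Hoxa9-Meis1 group Hpgd was lower on the 2 arrays where that sum was high. The monocyte and macrophage sum had the order of Hpgd there, at 13.84, 13.73 and 14.46 for replicates 1, 2 and 3. So did the late neutrophil sum, at 16.39, 16.08 and 16.50. The B cell sum (10.38, 11.14 and 9.94) and the megakaryocyte and platelet sum (11.26, 11.47 and 11.08) had the opposite order. An order over 3 arrays cannot tell these lists apart. The monocyte and macrophage sum was lower in deleted than in floxed leukemias, where 2 of its 8 markers were called lower and 0 higher. These were Ly86 (difference -2.93) and Ccr2 (-1.71), and Cd68 (-1.11) and Cx3cr1 (-0.85) were lower without a call. Cd14 went the other way (1.62, not called), and Csf1r (0.02), Adgre1 (-0.15) and Mertk (-0.004) hardly differed. Of 5 eosinophil markers 1 was lower in each MLL-AF9 group, with sums of 11.46 to 12.04 in Hoxa9-Meis1, 10.23 to 10.63 in floxed and 9.76 to 10.91 in deleted leukemias. Late neutrophil markers, of which 9 were measured, had sums of 16.44 to 16.82 in deleted, 15.92 to 16.67 in floxed and 16.08 to 16.50 in Hoxa9-Meis1 leukemias, with 1 higher in deleted than in floxed leukemias and 2 higher than in Hoxa9-Meis1. The part of these lists in the member differences was not tested.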

How the data were processed

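Expression was measured on 9 one-colour Affymetrix arrays. The authors deposited 1 intensity per probe set and array, made with RMA per the submitters' processing notes; its version is not given in the sources used here. Values of 4.60 to 32082 show a linear scale, so log2(value + 1) was taken, which understates differences of dim probe sets. The number of arrays limits the precision. Symbols came from the platform annotation (34958 probe sets with 1 symbol) and a gene with several probe sets was read from the one of highest mean level. A single model over the 9 arrays, with a mean per group, was fitted with limma 3.58.1 in R 4.3.3, two-sided, with Benjamini-Hochberg adjustment over 18194 genes or 45101 probe sets, called under 0.05. The code was tested on simulated data. Groups came from the labels, and replicates 1 to 3 of Hoxa9-Meis1 are numbered in accession order. Named genes are the members, called pathway genes (5 largest per direction and comparison), the neighbours of Hpgd, and the genes most like it. The members and lists were chosen with earlier results of these data known. Other marker lists were for T and NK cells (4 of 6 rose from floxed to deleted leukemias), B cells (1 of 5 fell) and stroma (1 of 6 fell). Alternatives were other pseudocounts, a filter on dim genes, mean of probe sets, repeated normalization, array weights, 2-group fits, a replicate block and leaving out arrays.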

Additional observations from a re-analysis of the deposited data

How the results depend on the processing

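Of 871 values recomputed under 18 alternatives, 700 kept their direction and side of the threshold or moved little. Between deleted and Hoxa9-Meis1 leukemias the calls of Ptges, Alox5 and Tbxas1 were kept under every alternative run. Hpgd is not counted there, since its low deleted values chose it. The 1 member call of floxed against Hoxa9-Meis1 became 2 with the mean of probe sets, with array weights (2) and was 1 to 2 with arrays left out (2, with Ptges, without floxed replicate 5). Counts of further pathway genes called were, for deleted against floxed, 8, but 4 with only the 2 groups in the fit, 3 with the replicate block and 4 to 6 with arrays left out. For floxed against Hoxa9-Meis1 they were 4, but 8 with array weights and 2 to 5 with arrays left out, and for deleted against Hoxa9-Meis1 10, but 16 with array weights and 1 to 9 with arrays left out (1 without Hoxa9-Meis1 replicate 1). The sign of Hpgds in floxed against Hoxa9-Meis1 turned with array weights (-0.0881) and ranged from -0.16 to 0.10 with arrays left out. That of Ptgs2 in deleted against Hoxa9-Meis1 ranged from -1.51 to 0.0813 (without Hoxa9-Meis1 replicate 1). The cause was not tested. Same-numbered deleted and floxed arrays hardly deviated together (r = 0.03, 0.05 and 0.01 across genes for replicates 4, 5 and 6). Arrays of unlike number had r from -0.13 to 0.08. With 3 arrays per group these values cannot tell whether the numbers pair the arrays. Over all genes, 1246 were called between deleted and floxed leukemias, but 599 with the replicate block, 736 without deleted replicate 4, 645 without floxed replicate 5, and 498 without it and deleted replicate 6. For floxed against Hoxa9-Meis1 the count was 1618, but 2543 with array weights and 681, 823 and 1028 without Hoxa9-Meis1 replicate 1, replicate 2 or floxed replicate 5. For deleted against Hoxa9-Meis1 it was 2821, but 1540, 1636 and 1860 without Hoxa9-Meis1 replicate 1, replicate 2 or deleted replicate 4. Hpgd differed by -6.76 with a pseudocount of 32. Probe sets near background (Hpgds, Ptgs2, and Hpgd after deletion) limit what their differences can show. Leaving out deleted replicate 6 and floxed replicate 5 together was chosen after seeing the data.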
